A study of Solanum lycopersicum with 30 samples.

Results

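The comparison described here sets vein tissue of tomato (Solanum lycopersicum) leaves that had been rewatered after a drought against vein tissue of plants watered throughout, at the last of the study's time points, T2. The study has 30 RNA-seq libraries, and 6 of them belong to this comparison: 3 libraries labelled recovered and 3 labelled watered, each from a separate plant. The first reading uses 5 of the 6, recovered 1 and 3 against watered 1, 2 and 3. Recovered 2 was read separately, because its tissue-specific genes looked like those of intervein tissue.

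Recovered plants had gone 6 days without water up to T1, were returned to watering and were sampled at T2, 3 days after the return by the growth protocol. The labels disagree here: the treatment protocol gives watering on days 29 and 30 after sowing, followed by collection. Their watered counterparts received 150 mL every other day and never dried. The other groups are drought and watered plants at T1, 29 days after sowing, and watered plants at T0, at 25 days. In all groups the fourth true leaf was cut into a vein-enriched section, holding the larger veins and the cells around them, and an intervein section, the lamina between those veins, and there were 3 plants per group and tissue. All plants shared pots of 300 g of soil and 16 h of light. The vein sections are enriched by dissection and are not pure, and in such bulk samples fewer cells of a type and less RNA per cell cannot be told apart.

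As background, leaf veins hold xylem, which brings water into the leaf, and phloem, which exports sugar, together with the parenchyma and sheath cells around both. The lamina between the veins consists mostly of photosynthetic mesophyll. During drought, abscisic acid rises and stomata close, genes of osmotic protection are typically switched on, and genes of growth and photosynthesis are typically turned down. On rewatering, many of these transcripts return towards their watered level, and some pass it or stay displaced.

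The 6 compared libraries held 5496232, 6591988 and 9309034 counts in recovered 1, 2 and 3 and 6524988, 9100229 and 5108541 counts in watered 1, 2 and 3. All 30 libraries lay between 2718799 and 13641845 counts. The count table has 35596 rows, of which 34429 carry tomato gene identifiers (Solyc) and 1167 carry identifiers of the ENSRNA series. A filter on low counts left 19956 rows for testing, and these held 99.96% of all counts. The table does not pair its identifiers with gene names, so genes are given by identifier and the groups by how they behaved at T0 and T1.

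Tissue identity was checked first, with genes that differed between vein and intervein at T0. At an adjusted p under 0.05 (edgeR's quasi-likelihood test with Benjamini-Hochberg adjustment), 699 of 16845 genes preferred vein (4.15%) and 852 preferred intervein (5.06%), together 9.21%. The list sizes depended on single libraries: 290, 681 and 52 genes were called without vein 1, 2 and 3 of T0, and 0, 0 and 1794 without intervein 1, 2 and 3. Lists chosen on the T0 and T1 watered libraries together gave 4491 genes. A tissue score was taken in each library by subtracting the mean level of the intervein list from that of the vein list, both as log2 CPM, the logarithm of counts scaled to a common library size. The score was 1.52, -3.14 and 1.35 in recovered 1, 2 and 3 and 1.28, 1.34 and 0.70 in watered 1, 2 and 3. Recovered 1 and 3 therefore lay above all 3 watered libraries, by a margin over watered 2 that was narrow for recovered 3, and recovered 2 lay far below zero.

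**Figure D1:**
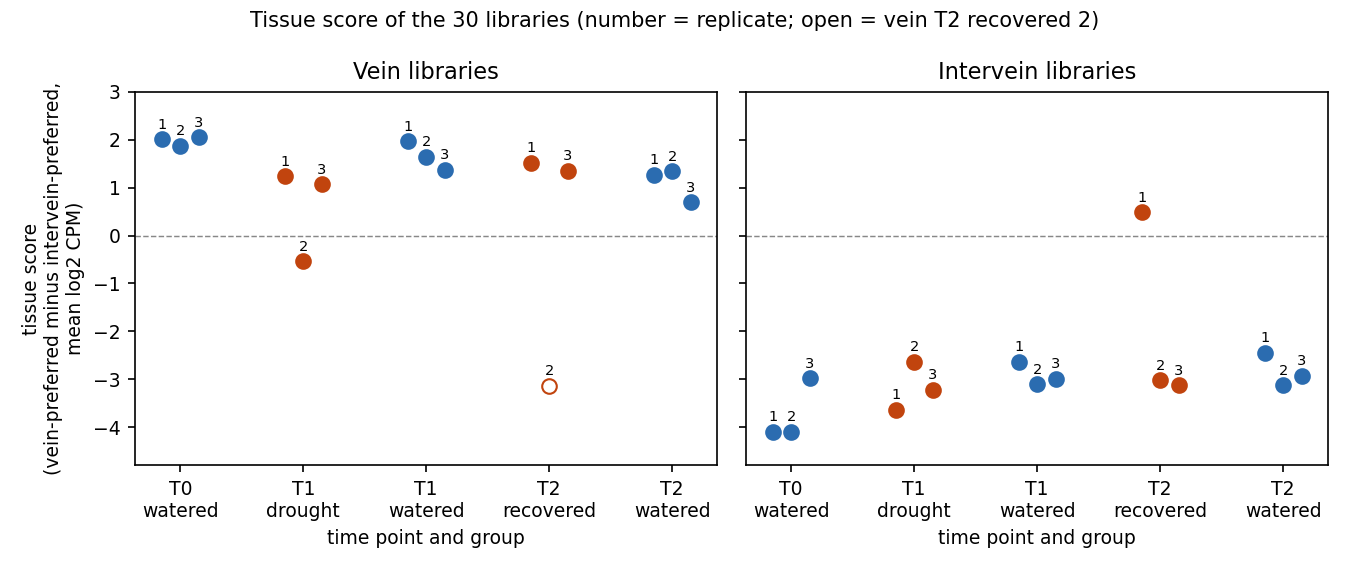
Tissue score, the mean log2 CPM of vein-preferred minus that of intervein-preferred genes, in each of the 30 libraries by time point and group, with vein libraries on the left and intervein libraries on the right. Vein T2 recovered 2 sits at -3.14, among the intervein libraries, while recovered 1 and 3 sit at 1.52 and 1.35 beside the watered libraries.

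Of the other vein libraries, 13 scored between 0.697 and 2.06 and T1 drought 2 scored -0.538. Of the intervein libraries, 14 scored between -4.10 and -2.44, the range in which vein recovered 2 fell, and intervein T2 recovered 1 scored 0.489. The whole profile gave the same placement. Across genes, the Spearman correlation of recovered 2 was 0.817 with the mean vein profile and 0.918 with the mean intervein profile of the T1 watered plants. Recovered 1 had 0.937 with vein and 0.846 with intervein, and recovered 3 had 0.913 and 0.869. Watered 1, 2 and 3 had 0.947, 0.941 and 0.926 with vein and 0.852, 0.843 and 0.847 with intervein. These correlations are across genes, which are not independent replicates. The library labelled vein recovered 2 thus went against its label in its tissue genes, so each result is given without it first.

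Between recovered 1 and 3 and the 3 watered libraries, no gene passed an adjusted p of 0.05 in edgeR's quasi-likelihood test with Benjamini-Hochberg adjustment (0% of 19956), and the smallest adjusted p was 0.0778. At an unadjusted p under 0.05 there were 1138 genes with higher levels (5.7%) and 943 with lower levels (4.73%), 10.4% in all. DESeq2 on the same libraries called 298 genes higher (1.67% of 17831) and 147 lower (0.824%). Of these 445 genes (2.5%), 424 had an unadjusted p under 0.05 with the same sign in edgeR. The call also turned on 1 library: without recovered 1, 180 genes were called by edgeR, 100 higher and 80 lower, with the lone recovered library taken to vary like the other groups. Leaving out recovered 3 or any one of the watered libraries gave 0.

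The spread between the 2 recovered libraries was wide. The difference in log2 CPM between recovered 3 and recovered 1 had an SD of 1.54 over the tested genes. Both recovered libraries lay above all 3 watered libraries in 3634 genes (18.2%) and below all 3 in 3843 (19.3%). Of the genes at an unadjusted p under 0.05, 1020 of the 1138 higher and 892 of the 943 lower had groups that did not overlap. The choice of genes by p on these same libraries raises these counts. Among the 1138 higher genes, recovered 3 stood above recovered 1 in 921, and among the 943 lower genes it stood below recovered 1 in 481. For most of the higher genes recovered 3 was thus the further of the recovered libraries from the watered ones, and for the lower genes the order was about even. How often recovered 3 stood above recovered 1 over all tested genes was not counted, so this order is a description.

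The gene with the smallest p was Solyc01g105560. It had 412 and 681 CPM in recovered 1 and 3, against 67.4, 69.8 and 48.8 CPM in watered 1, 2 and 3. Both recovered libraries lay far above the watered ones, which were close together. The difference was 3.12 on the log2 scale (SE 0.52), and the gene was not called (adjusted p = 0.0778 in edgeR's quasi-likelihood test). At T1 its levels were 77.5, 133 and 50.4 CPM in drought plants and 207, 126 and 185 CPM in watered plants, and at T0 they were 103, 149 and 248 CPM. Both T2 recovered levels were thus above those of all vein libraries of T0 and T1.

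Solyc02g082550 had 150.0 and 162 CPM in recovered 1 and 3, against 16.3, 20.8 and 28.7 CPM in watered 1, 2 and 3. The recovered libraries nearly coincided, and the difference was 2.81 on the log2 scale (SE 0.52, adjusted p = 0.118, not called by edgeR). The vein libraries of T0 and T1 lay between 24.0 and 79.9 CPM, below both recovered values.

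Among genes with lower levels, Solyc04g080640 had 2.03 and 0.631 CPM in recovered 1 and 3, against 15.7, 15.0 and 22.9 CPM in watered 1, 2 and 3. Its difference was -3.79 on the log2 scale (SE 0.77, adjusted p = 0.118, not called by edgeR). Solyc10g079120 had 16.9 and 16.1 CPM in recovered 1 and 3, against 33.3, 57.7 and 61.8 CPM in watered 1, 2 and 3. This gene's recovered libraries were almost equal and its watered ones were more widely spread, from 33.3 to 61.8 CPM. The difference was -1.65 (SE 0.38, adjusted p = 0.119, not called by edgeR). For each of these 4 genes, DESeq2 gave an adjusted p of 0.00319 or less.

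**Figure D2:**
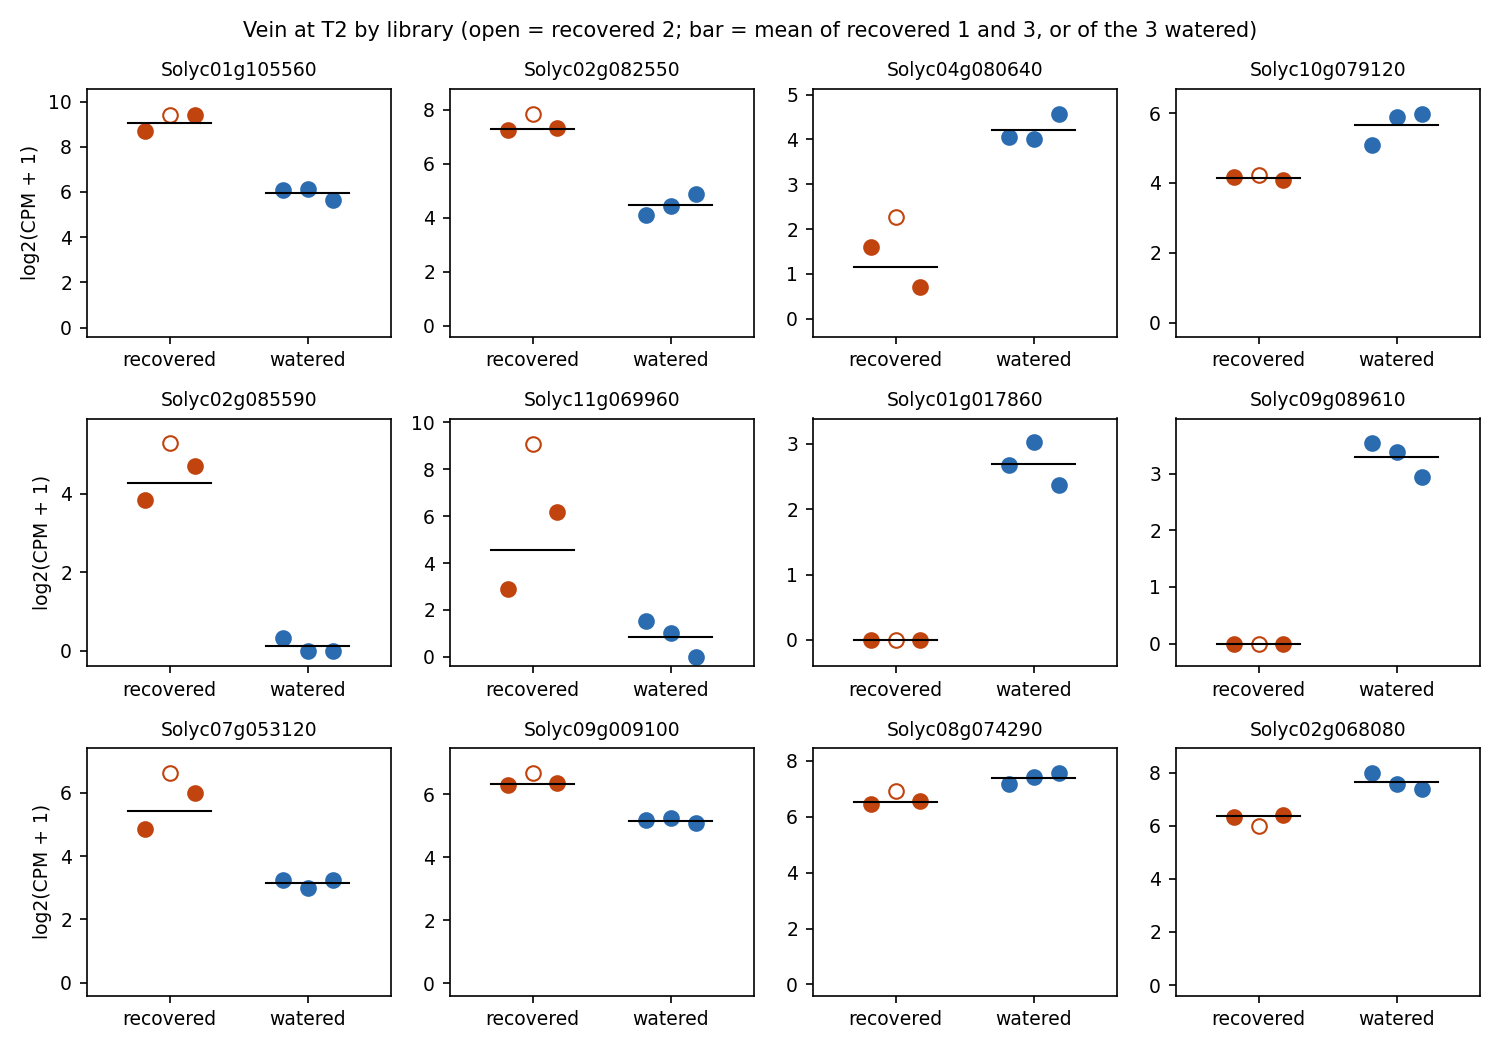
Level of 12 named genes in the 6 vein libraries at T2, as log2(CPM + 1), with recovered libraries in orange and watered libraries in blue and recovered 2 as an open circle. Bars mark the mean of recovered 1 and 3 or of the 3 watered libraries, and in each panel recovered 1 and 3 lie on one side of every watered library. The rule for genes named at T2 required this, and the choice of the others on the same libraries favours it.

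Of the 699 vein-preferred genes, 492 (70.4%) had a log2 fold change above 0, against 9303 of all tested genes (46.6%). Their median was 0.39, against -0.01 over all tested genes. At an unadjusted p under 0.05, 46 were higher (6.58%, near the 5.7% of all tested genes) and 4 lower (0.572%, beside 4.73%). Both recovered libraries lay above all watered libraries in 201 genes (28.8%, beside 18.2%) and below them in 54 (7.73%, beside 19.3%). The median was 0.20 without recovered 1 and 0.13 with lists chosen on the T0 and T1 watered libraries together. The intervein-preferred genes, 852 in number, had a median of 0.15. At an unadjusted p under 0.05, 52 were higher (6.10%) and 48 lower (5.63%), both near the shares of all tested genes, and 246 lay above (28.9%) and 123 below (14.4%) all watered libraries. Their median was 0.08 without watered 2, 0.23 with DESeq2's scaling or DESeq2 itself, and 0.19 with lists chosen on the T0 and T1 watered libraries, where it exceeded that of the vein list. The tissue scores of recovered 1 and 3 (1.52 and 1.35) stood beside 1.28, 1.34 and 0.70 in the watered libraries, and the part of vein content in these medians was not tested.

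The genes that drought had moved in vein at T1 were then followed to T2. At T1, 111 genes were higher in drought vein (0.556%) and 128 lower (0.641%) at an adjusted p under 0.05 (edgeR's quasi-likelihood test with Benjamini-Hochberg adjustment), 239 in all (1.2%). The T1 and T2 comparisons share no library. The T1 lists themselves rested on single libraries: 44, 20 and 119 genes were called without drought 1, 2 and 3 of T1, and 41, 39 and 121 without watered 1, 2 and 3. The tissue score of T1 drought 2 was -0.538.

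The drought-lower genes were mostly above their watered level after rewatering. Their median T2 log2 fold change was 0.53, with quartiles of 0.03 and 1.21, and 98 of 128 (76.6%) lay above 0. With single T2 libraries left out, this median ran from 0.38 (without watered 3) to 0.68 (without watered 1). At an unadjusted p under 0.05, 28 of the 128 were higher (21.9%, beside 5.7% of all tested genes) and 2 lower, and none was called. Both recovered libraries stood above all 3 watered libraries in 52 of 128 genes (40.6%, beside 18.2%) and below them in 8. The mean level of the list was 5.44 and 5.66 log2 CPM in recovered 1 and 3, against 5.22, 5.04 and 4.61 log2 CPM in watered 1, 2 and 3. For comparison it was 2.87, 2.85 and 3.15 in T1 drought plants and 6.06, 6.05 and 5.61 in T1 watered plants, which the choice of the list fixes. At T0 it was 5.84, 4.87 and 5.71. The T2 recovered values thus lay within the range of the T0 libraries and near the lowest T1 watered one. Watered 1 and 2 of T2 also lay within the T0 range, and watered 3 lay below it.

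The drought-higher genes were mostly below their watered level. Their median was -0.37, with quartiles of -1.03 and 0, and 27 of 111 (24.3%) lay above 0. With single T2 libraries left out, this median ran from -0.48 (without watered 1) to -0.28 (without watered 3). At an unadjusted p under 0.05, 3 were higher and 16 lower (14.4%, beside 4.73% of all tested genes), and none was called. Both recovered libraries stood below all 3 watered libraries in 44 genes (39.6%, beside 19.3%) and above them in 13. The mean level was 4.29 and 4.15 log2 CPM in recovered 1 and 3, against 4.49, 4.58 and 5.04 log2 CPM in watered 1, 2 and 3. In T1 drought plants it was 6.86, 7.32 and 6.70 and in T1 watered plants 3.83, 3.77 and 3.97. At T0 it was 3.95, 5.05 and 4.25, a range that holds recovered 1 and 3 and all 3 watered libraries of T2. Recovered vein at T2 was thus far from the drought level and lay between the T1 watered and the T2 watered libraries. The T2 watered libraries were themselves above the T1 watered ones.

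**Figure D3:**
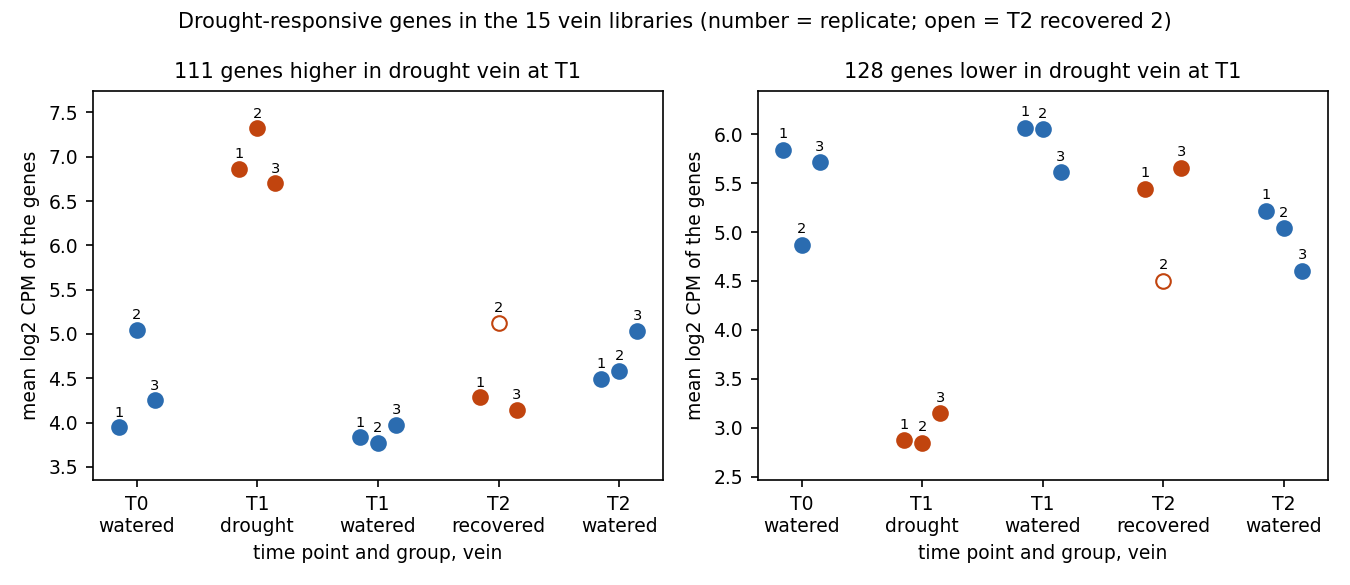
Mean log2 CPM of the 111 genes higher (left) and the 128 genes lower (right) in drought vein at T1, in each of the 15 vein libraries by time point and group. At T2, recovered 1 and 3 lie below all 3 watered libraries on the left and above them on the right, and recovered 2, drawn open, lies on the other side in both panels; the T1 separation follows from the choice of genes.

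Part of these genes were also on the tissue lists, which hold 3.50% (vein) and 4.27% (intervein) of all tested genes. Of the drought-lower genes, 24 were vein-preferred (18.8%) and 4 intervein-preferred (3.13%). Of the drought-higher genes, 1 was vein-preferred (0.901%) and 11 were intervein-preferred (9.91%). Without them the 100 remaining drought-lower genes had a median of 0.44 at T2 and the 99 remaining drought-higher genes had one of -0.37. With T1 drought 2 left out of the choice, 9 genes formed the drought-lower list and 11 the drought-higher list. Their T2 medians were 1.08 (8 of 9 above 0) and -0.45 (9 of 11 below 0). With lists chosen by DESeq2 the medians were 0.46 and -0.28.

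Whether a gene's T2 difference differed from its T1 difference was tested directly, as the recovered minus watered difference at T2 minus the drought minus watered difference at T1. At an adjusted p under 0.05, 155 genes were called (0.777%) by edgeR's quasi-likelihood test, 101 with a higher difference at T2 (0.506%) and 54 with a lower one (0.271%). Of the 101, 100 were below their watered level at T1 and above it at T2 by the fitted values, and of the 54, 53 were above at T1 and below at T2. The choice of genes by a large difference between the time points favours such opposite signs, so these counts and the medians are descriptions. The medians of the 101 were 1.85 at T2 and -2.37 at T1, and those of the 54 were -1.32 at T2 and 1.67 at T1. At T1 alone 88 of the 155 were called, and at T2 111 had an unadjusted p under 0.05. Recovered 1 and 3 did not overlap the watered libraries in 137 of them, beside 37.5% of all tested genes, and this share too is raised by the choice, which used the same T2 libraries. Of the calls, 53 came from the drought-lower and 35 from the drought-higher list, which share the T1 libraries with this test. Of the 155, 13 were vein-preferred (8.39%, beside 3.50% of all tested genes) and 9 intervein-preferred (5.81%, beside 4.27%).

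The count of 155 moved with single libraries. It was 6 without recovered 3 and 270 without recovered 1. It was 59, 42 and 29 without watered 1, 2 and 3, 44, 131 and 92 without T1 drought 1, 2 and 3, and 48, 65 and 164 without T1 watered 1, 2 and 3. Of the 6 genes called without recovered 3, 5 were among the 155. All of these counts are from edgeR.

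Of the genes with a higher difference at T2, Solyc07g053120 had 27.7 and 62.5 CPM in recovered 1 and 3, against 8.41, 7.03 and 8.50 CPM in watered 1, 2 and 3. At T1 it had 2.73, 3.54 and 7.52 CPM in drought vein and 66.9, 54.1 and 15.1 CPM in watered vein. The log2 fold changes were 2.48 at T2 and -3.31 at T1, a difference of 5.80 (adjusted p = 0.00421, edgeR's quasi-likelihood test). The groups did not overlap at either time point, and the watered libraries of T2 lay below those of T1. Solyc09g009100 had 77.4 and 80.3 CPM in recovered 1 and 3, against 34.9, 36.7 and 32.8 CPM in watered 1, 2 and 3. Its log2 fold change was 1.16 at T2 and -2.38 at T1, a difference of 3.54 (adjusted p = 0.00421). At T1 it had 10.4, 25.6 and 19.7 CPM in drought vein and 99.6, 72.7 and 116 CPM in watered vein. At T0 it had 55.8, 50.4 and 91.4 CPM. The recovered levels of T2 lay within the range of the T1 watered libraries, and the T2 watered levels lay below that range.

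Of the genes with a lower difference at T2, Solyc08g074290 had 87.1 and 93.5 CPM in recovered 1 and 3, against 145, 168 and 186 CPM in watered 1, 2 and 3. Its log2 fold changes were -0.90 at T2 and 0.92 at T1, a difference of -1.82 (adjusted p = 0.0068 in edgeR). At T1 it had 225, 231 and 192 CPM in drought vein and 113, 113 and 116 CPM in watered vein. Solyc02g068080 had 78.5 and 84.5 CPM in recovered 1 and 3, against 249.7, 189.9 and 167 CPM in watered 1, 2 and 3. Its log2 fold changes were -1.32 and 1.44, a difference of -2.77 (adjusted p = 0.0068 in edgeR). At T1 it had 245, 206 and 198 CPM in drought vein and 67.0, 75.6 and 95.9 CPM in watered vein. At T0 it had 201, 125 and 94.8 CPM. The recovered levels of T2 lay within the range of the T1 watered libraries, and the T2 watered levels lay above that range. Without recovered 3 the edgeR adjusted p was 0.0795 for Solyc08g074290 and 0.0632 for Solyc02g068080.

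**Figure D4:**
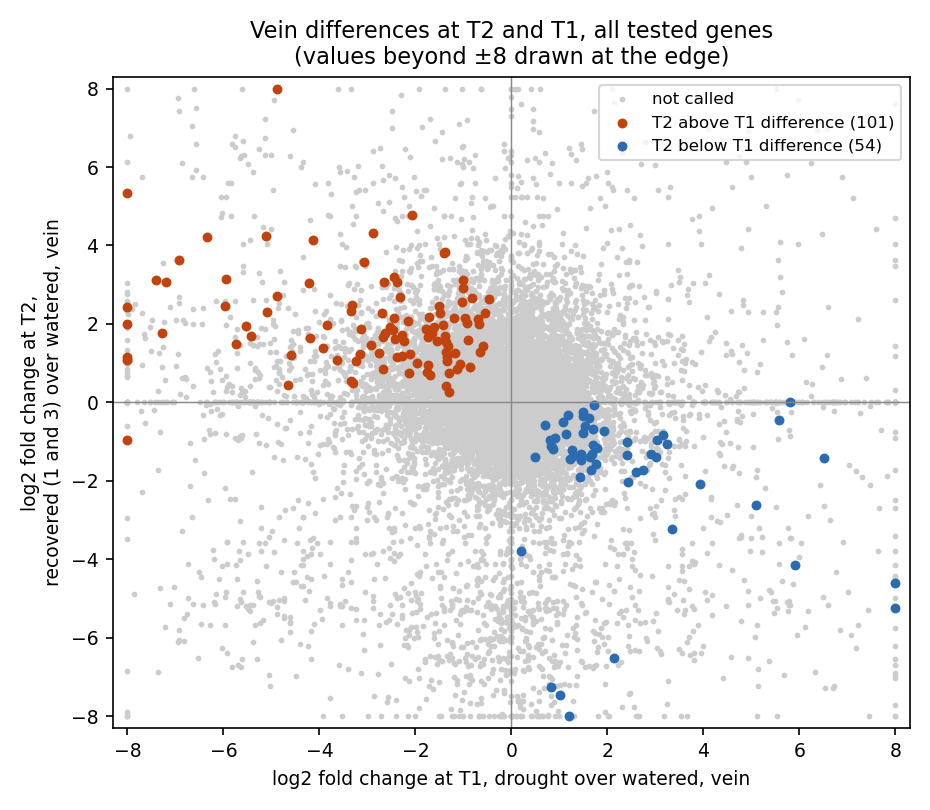
Fitted log2 fold change in vein of each tested gene at T1 (drought over watered, horizontal axis) and at T2 (recovered 1 and 3 over watered, vertical axis). Genes whose T2 difference exceeded the T1 difference (101, orange) lie almost all at upper left and those in which it was lower (54, blue) almost all at lower right; values beyond ±8 are drawn at the edge.

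The 4 genes named first had the smallest p at T2 in their direction, among genes with at least 5 CPM and no overlap between groups. Their T2 minus T1 difference was 4.12 in Solyc01g105560 (adjusted p = 0.00806, edgeR) and -3.99 in Solyc04g080640 (adjusted p = 0.0445). In Solyc02g082550 it was 2.74 (adjusted p = 0.0605) and in Solyc10g079120 it was -1.38 (adjusted p = 0.162), so their T2 difference was not shown to differ from that at T1. Solyc01g105560 and Solyc04g080640 passed the test here and not at T2 alone. The call of Solyc04g080640 was kept in 5 of 17 alternatives. Its adjusted p in edgeR was 0.3225 without recovered 3 and 0.0740, 0.0848 and 0.118 without watered 1, 2 and 3 of T2. Leaving out any one of the T1 libraries, or adding recovered 2, also took it above 0.05. The call of Solyc01g105560 was lost without recovered 3 (adjusted p = 0.0795, edgeR).

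Rows of the ENSRNA series, 162 of which were tested, had a median T2 log2 fold change of 0.58, and 123 of 162 (75.9%, beside 46.6% of all tested genes) lay above 0. The median of these rows ran from 0.42 (without recovered 3) to 0.86 (without watered 3) with single T2 libraries left out. At an unadjusted p under 0.05, 3 were higher (1.85%, beside 5.7%) and 1 lower (0.617%, beside 4.73%), and none was called. These rows held 1.37% and 1.59% of all counts in recovered 1 and 3, against 1.05%, 0.761% and 1.46% in watered 1, 2 and 3, so the groups overlapped in this share. Recovered 2 held 1.97%.

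The vein difference at T2 was also set against the same difference in intervein. No gene passed an adjusted p of 0.05 for the difference between tissues in edgeR's quasi-likelihood test (0%), and the smallest adjusted p was 0.326. There were 204 genes with an unadjusted p under 0.05 and a higher vein than intervein difference (1.02%), and 722 with a lower one (3.62%), together 4.64%. DESeq2 called 7 higher and 61 lower, and without recovered 1 edgeR called 35. The intervein groups include recovered 1 of intervein, whose score was 0.489. Of the 1138 genes higher in vein at an unadjusted p under 0.05, 1069 had an intervein fold change above 0, and of the 943 lower genes, 782 had one below 0. The same share over all tested genes was not counted, so these are descriptions that do not show a shared response.

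Adding recovered 2 gave a 3 against 3 comparison on 19431 genes. In edgeR's quasi-likelihood test, 268 genes rose (1.38%) and 37 fell (0.19%) at an adjusted p under 0.05, 305 in all (1.57%). All 305 had the same sign without recovered 2, and 302 had an unadjusted p under 0.05 there. Both tests hold the same 5 libraries, so this agreement largely follows from the choice of genes. The median log2 fold change of the 268 was 2.62 with recovered 2 and 2.12 without it, and that of the 37 was -1.94 without it. All 3 recovered libraries stood above all watered ones in 266 of the 268 and below them in all 37. A call on these same libraries favours such separation, so these counts and the medians are descriptions. Recovered 2 was the highest of the 3 recovered libraries in 208 of the 268, and the share over all tested genes was not counted. DESeq2 on 5 libraries shared 219 calls with these 305.

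Recovered 2 had a tissue score of -3.14, and the part of its tissue genes in the added calls was not tested. Among the 268 higher genes, 28 were intervein-preferred (10.4%, beside 4.38% of tested genes) and 1 was vein-preferred, and among the 37 lower genes there was 1 of each. Over whole lists, adding recovered 2 took the median of the intervein-preferred genes to 0.97, against 0.15 without it, and that of the vein-preferred genes to -0.01, against 0.39. The drought-lower list had a median of 0.37 with recovered 2 and 0.53 without it, and the drought-higher list had -0.08 and -0.37. In recovered 2 the mean level of the drought-lower genes was 4.50 log2 CPM, below all 3 watered libraries, and that of the drought-higher genes was 5.13 log2 CPM, above all of them.

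The count with recovered 2 rested on single libraries as well. It was 1121 without recovered 1 and 14 without recovered 3. Of the 1121 calls, 148 were intervein-preferred, and of the 14, 1 was. Among all genes tested with the 6 libraries, 852 (4.38%) were intervein-preferred. The count of calls was 0 without any one of watered 1, 2 or 3 and 0 without recovered 2.

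**Figure D5:**
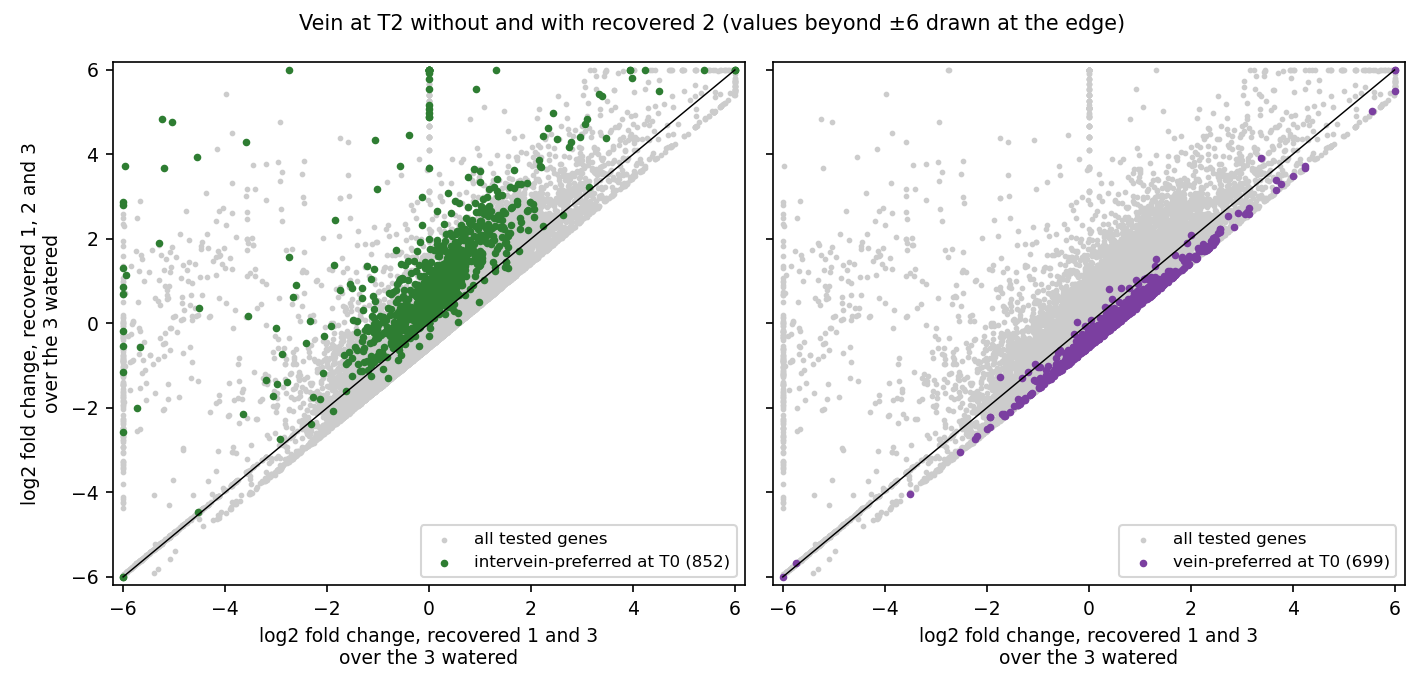
Log2 fold change of vein recovered over watered at T2 without recovered 2 (horizontal axis) and with it (vertical axis) for each tested gene, with intervein-preferred genes in green on the left and vein-preferred genes in purple on the right. With recovered 2 most intervein-preferred genes lie above the line of equality (median 0.97 with it, 0.15 without it) and most vein-preferred genes below it (median -0.01 with it, 0.39 without it); values beyond ±6 are drawn at the edge.

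The 4 genes named first at T2 were called once recovered 2 was added. Solyc01g105560 had 686 CPM in recovered 2 (adjusted p = 0.0161 in edgeR with all 6 libraries) and Solyc02g082550 had 227 CPM (adjusted p = 0.0161). Solyc04g080640 had 3.85 CPM and Solyc10g079120 had 17.9 CPM in recovered 2, each with an adjusted p of 0.0278. In each of the 4 genes recovered 2 stood on the same side of the watered libraries as recovered 1 and 3. Each of these calls was lost without any one of the watered libraries.

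Among the genes called with recovered 2, the most extreme fold changes came from genes at or near 0 in a group. Solyc02g085590 had 13.3, 38.1 and 25.0 CPM in recovered 1, 2 and 3, against 0.24, 0 and 0 CPM in watered 1, 2 and 3, where it had 2 counts in all. The ratio of recovered 1 and 3 to watered was 267, with a 95% interval of 73.4 to 2215 that covers counting error only. In drought vein at T1 the same gene had 104, 95.2 and 129.7 CPM, against 1.23, 2.58 and 1.41 CPM in watered vein. Its recovered levels lay between the watered and the drought levels of T1. In watered vein at T0 it had 0.528, 59.5 and 15.6 CPM, a range that covers the recovered values. Solyc11g069960 had 6.41, 538 and 71.6 CPM in recovered 1, 2 and 3, against 1.92, 1.04 and 0 CPM in watered 1, 2 and 3. Its value in recovered 2 was far above the other 2, and its intervein levels at T2 were 125, 281 and 87.1 CPM in recovered plants and 37.9, 3.79 and 18.7 CPM in watered plants. The adjusted p with all 6 libraries was 0.0339 for Solyc02g085590 and 0.0255 for Solyc11g069960 (edgeR).

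Among the lower calls, Solyc01g017860 had no count in any of the 3 recovered libraries, against 5.41, 7.12 and 4.17 CPM in watered 1, 2 and 3. With a floor of 3 counts over recovered 1 and 3 it was at least 29.5-fold lower. In watered vein it had 3.26, 0 and 2.21 CPM at T0 and 0.766, 3.64 and 0.906 CPM at T1. Drought vein at T1 had 1.27, 3.91 and 3.12 CPM, so the watered libraries of T2 held its highest vein levels. Solyc09g089610 had no count in the recovered libraries, against 10.7, 9.47 and 6.64 CPM in the watered ones, and was at least 47.4-fold lower. Its vein levels at T0 and T1 ran from 0.559 to 11.5 CPM. It had no count in any of the 6 intervein libraries of T2. The adjusted p with all 6 libraries was 0.0427 for Solyc01g017860 and 0.042 for Solyc09g089610 (edgeR). Of 15 alternatives, the call was kept in 6 for Solyc01g017860, 9 for Solyc09g089610, 9 for Solyc02g085590 and 8 for Solyc11g069960. The 15 include the legacy method, which repeats the main fit. For Solyc01g017860 the adjusted p was 0.0517 with no filter and 0.0539 with the 15 vein libraries. Each of the 4 calls was lost without recovered 2, without recovered 3 and without any one of the watered libraries. Genes without a count were common at this depth: 1518 tested genes had none in recovered 1 and 3 together and 741 had none in the 3 watered libraries.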

How the data were processed

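RNA came from vein and intervein sections of single plants, libraries were made with a stranded mRNA kit and read as 75 nt single reads in 2 runs of 1 pool, per the labels' protocols. The authors deposited a table of raw counts per gene. HISAT2 2.1.0, FastQC 0.11.5 and StringTie 1.3.3b are listed in the submitters' processing notes, as is DESeq2 1.20.0. The genome build was not given in the sources used here, nor were the annotation and the rule for reads that map to several places. The authors' own T1 test columns were not used here. The identifiers matched none of the RefSeq genes supplied, and no reference sequence was used here.

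Counts were tested with edgeR 4.0.16 (R 4.3.3): rows kept by filterByExpr, TMM scaling, 1 coefficient for each of 10 groups, quasi-likelihood F test and Benjamini-Hochberg adjustment over all tested rows. The main quasi-likelihood fit equals that of the legacy method. The fit without vein T2 recovered 2 had 29 libraries and 19 residual degrees of freedom, and the fit with it had 30. CPM use TMM factors, and log2 CPM a prior count of 2. DESeq2 1.42.0 was the alternative tool, and its adjusted p-values follow independent filtering. The scripts were tested on simulated data. Normalization, filter, fitted libraries, replicate numbers and single libraries were varied.

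Plants are separate within a group but no batch is labelled, so p-values measure the spread between these plants and libraries. A vein and an intervein library may come from the same plant. The tests between tissues, at T0 and for the T2 response, did not pair them and treated all libraries as independent. With 2 against 3 libraries, single values have limited precision, and counting intervals cover counting error only. Genes named at T2 have a mean of at least 5 CPM, no overlap between groups and the smallest p in each direction. Those of the 6-library test have the largest and smallest log2 fold change among the genes called there. Those of the T2 minus T1 test have the smallest adjusted p, a rule added after the values were seen. As the identifiers have no names, 2 genes per direction are given instead of 6 or 3, and no pathway list was formed. The comparison, the lists and the gene rule were chosen with earlier results of these data known.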

Additional observations from a re-analysis of the deposited data

Results flagged for a closer look

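The T2 difference between recovered and watered vein differed from the T1 difference between drought and watered vein, by a test of the difference itself (edgeR's quasi-likelihood test, adjusted p under 0.05), in 155 genes. Of the genes named above, 6 were among them, and their T2 minus T1 differences on the log2 scale were 4.12 in Solyc01g105560, -3.99 in Solyc04g080640, 5.80 in Solyc07g053120, 3.54 in Solyc09g009100, -1.82 in Solyc08g074290 and -2.77 in Solyc02g068080. Over 17 alternatives, Solyc07g053120 and Solyc09g009100 were called in all 17, Solyc01g105560, Solyc08g074290 and Solyc02g068080 in 16 and Solyc04g080640 in 5.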

How the results depend on the processing

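With 5 libraries the count of 0 genes at T2 was also 0 with relative log expression scaling, no filter, 28 libraries, 14 vein libraries and the 5 libraries alone. The legacy method gave the values of the main fit, with 5 and with 6 libraries. It is therefore the same fit and no separate check. It was 445 with DESeq2, 305 with all 6 libraries, 1 with the bias-adjusted quasi-likelihood method, and 0 to 180 without single libraries. The 305 calls of all 6 libraries became 351 with relative log expression scaling, 258 with 29 libraries, 197 with no filter, 1713 with DESeq2, 89 with the 15 vein libraries, 0 with the 6 libraries alone, 725 with the bias-adjusted method, and 0 to 1121 without single libraries. The 155 genes of the T2 minus T1 test became 1049 with DESeq2, 558 with 14 vein libraries, 542 with the bias-adjusted method, 292 with all 6 libraries, and 6 to 270 without single libraries. The tissue difference of the T2 response gave 68 with DESeq2 and 0 to 35 without single libraries. The T1 count of 239 was 961 with DESeq2 and 20 to 121 without single libraries. The T0 count of 1551 was 3484 with DESeq2, 4491 with T0 and T1 watered libraries together, and 0 to 1794 without single libraries. The causes were not tested. The median of the vein-preferred genes changed sign with all 6 libraries (-0.01, against 0.39 with 5), and no other value listed did. Of the values of single genes, 234 kept their side of the threshold, 66 lost and 16 gained a call, and of the list medians 48 moved by less than the spread between libraries and 35 by more. The 234 and the 48 include values of the legacy method, which repeat the main fit.

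Replicate numbers came with separate plants. Deviations of same-numbered T2 recovered and watered vein libraries correlated at 0.12, -0.11 and -0.14. The recovered group here included recovered 2, whose tissue score was -3.14, so this check cannot settle whether the numbers pair the plants. With the replicate block the count at T2 stayed 0 with 5 libraries and was 160 with all 6 libraries, 81 for the T2 minus T1 test, 0 for the tissue difference and 167 at T1. It ended the calls of Solyc04g080640 in the T2 minus T1 test (adjusted p = 0.0726, edgeR) and of Solyc01g017860 with all 6 libraries (adjusted p = 0.0612), and the median of the intervein-preferred genes was 0.24.

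At this depth, a level below 0.189 CPM over recovered 1 and 3 was not told from 0, and the 5-library reading rests on 2 recovered plants.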

Other observations

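The genes with an unadjusted p under 0.05 at T2 (recovered 1 and 3 against watered) were not spread evenly over expression level. Among 1785 genes with a mean of at least 100 CPM, 211 were higher (11.8%) and 74 lower (4.15%). Among 11885 genes between 5 and 100 CPM, 792 were higher (6.66%) and 621 lower (5.23%). Below 5 CPM, 135 of 6286 genes were higher (2.15%) and 248 lower (3.95%). The mean was taken over the same compared libraries, so a higher level in recovered vein itself moves a gene towards a higher class. Low counts can also make a small p harder to reach. Over all tested genes, 55.5% had T2 and T1 log2 fold changes of opposite sign, beside 98 of 128 (76.6%) of the drought-lower and 82 of 111 (73.9%) of the drought-higher genes. These are descriptions with no test.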
